A study of Mus musculus with 20 samples.

Results

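Promoters whose methylated-DNA signal was higher in sperm of DEHP-exposed males than in sperm of control males of both mouse strains are described here. They were chosen from the authors' group means: the means of the 4 groups were scaled to a common sum, the log2 change was taken as log2 of (DEHP + 1) over (control + 1), and a promoter was kept when this change reached 0.8 in both strains. Only promoters with at least 11 CG sites, on chromosomes 1 to 19 and outside 6 gene name prefixes (Mir, Olfr, Vmn, Zfp, Krt and Def) could enter. Of 22480 promoters in the table, 18144 were eligible and 1441 met the rule, which is 7.94% of those eligible.

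Sperm was taken from the vas deferens and epididymis of 20 male mice aged 8 weeks, with 5 males in each of 4 groups. The mothers of the C57BL/6J DEHP and FVB/N DEHP groups received di(2-ethylhexyl) phthalate, a plasticizer, by mouth in corn oil at 300 mg/kg/day on gestation days 9 to 19. The mothers of the C57BL/6J control and FVB/N control groups received corn oil alone over the same days, so that the vehicle was shared by all groups. No litter is given for any male, and each submission of libraries held 1 treatment in both strains. Treatment therefore cannot be told apart from submission or from the read length, which differed between DEHP and control libraries. The same holds for sequencing depth, since by the methods DEHP libraries had more read-pairs on average than control libraries.

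In MBD-seq, fragments with methylated CpG are pulled down by a protein domain that binds them and are then sequenced, so that the signal over a promoter rises with its methylation and with the number of CpG it can offer. Promoters rich in CpG are mostly free of methylation in sperm, whereas promoters poor in CpG are commonly methylated there. The methylation marks of imprinted genes are set in the germ line, and genes that act only outside the testis often have promoters poor in CpG. In pooled sperm DNA, more methylated cells and more methylated CpG per cell cannot be told apart.

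Examples from probes poor and rich in CG sites are shown, because the share of gaining promoters differed with the number of CG sites. Each probe covered 2000 bases upstream and 200 bases downstream of a gene start. Printed is the window of 250 bases with the most CG sites that holds no exon in GENCODE or RefSeq, read from GRCm38.p6 (mm10 coordinates) on the strand of the gene, with CG in capitals. From probes with 11 to 20 CG sites come Snn (chr16:11058999-11059248, plus strand, 3 CG in the window of a probe with 14), Gm839 (chr6:89216341-89216590, minus strand, 4 CG of 17) and Slc5a7 (chr17:54300580-54300829, minus strand, 5 CG of 12).
Snn: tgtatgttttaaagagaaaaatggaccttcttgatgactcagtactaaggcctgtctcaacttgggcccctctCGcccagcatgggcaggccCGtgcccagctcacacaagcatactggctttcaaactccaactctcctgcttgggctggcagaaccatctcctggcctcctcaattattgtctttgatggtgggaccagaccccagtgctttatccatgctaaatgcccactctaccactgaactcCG
Gm839: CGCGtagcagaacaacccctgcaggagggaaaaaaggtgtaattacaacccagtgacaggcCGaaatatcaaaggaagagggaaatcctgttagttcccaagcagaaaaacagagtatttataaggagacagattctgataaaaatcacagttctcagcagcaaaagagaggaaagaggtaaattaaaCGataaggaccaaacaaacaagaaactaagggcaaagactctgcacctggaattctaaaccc
Slc5a7: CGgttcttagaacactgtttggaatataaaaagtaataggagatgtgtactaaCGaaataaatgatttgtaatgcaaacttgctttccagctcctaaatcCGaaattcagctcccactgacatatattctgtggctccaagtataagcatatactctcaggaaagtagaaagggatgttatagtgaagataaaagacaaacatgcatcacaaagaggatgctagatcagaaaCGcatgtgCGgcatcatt
From probes with over 40 CG sites come Eftud1 (chr7:82648134-82648383, plus strand, 12 CG of 60) and 2210018M11Rik (chr7:98656842-98657091, minus strand, 16 CG of 66).
Eftud1: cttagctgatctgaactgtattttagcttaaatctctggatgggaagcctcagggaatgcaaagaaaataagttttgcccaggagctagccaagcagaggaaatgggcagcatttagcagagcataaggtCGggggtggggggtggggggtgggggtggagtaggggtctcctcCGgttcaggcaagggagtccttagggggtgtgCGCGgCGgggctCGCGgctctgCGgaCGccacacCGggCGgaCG
2210018M11Rik: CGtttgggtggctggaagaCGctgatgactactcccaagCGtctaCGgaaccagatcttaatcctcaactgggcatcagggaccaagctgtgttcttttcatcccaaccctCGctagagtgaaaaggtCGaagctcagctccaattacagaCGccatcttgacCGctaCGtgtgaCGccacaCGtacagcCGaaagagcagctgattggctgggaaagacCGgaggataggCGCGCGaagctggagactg
The first 3 windows held 3 to 5 CG at a GC content of 37.2% to 51.6%. The other windows held 12 CG at 59.2% GC in Eftud1 and 16 CG at 54.8% in 2210018M11Rik.

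Levels are given as the authors' mean of normalized reads over 5 libraries, multiplied by the factor that brings the group to the common sum, with the authors' SD multiplied likewise. The factors were 0.741 and 1.09 for controls and DEHP of C57BL/6J, and 1.19 and 1.12 for those of FVB/N. Division by it returns the deposited value. Since only group means and SDs entered, the depth of single libraries is unknown and the SD is the measure of error. No test between groups was run, because the same means had chosen the promoters. Values of single libraries were not used, and a pair of groups was called separated only where every DEHP library had to lie above every control library whatever the 5 values were. One of 5 values lies at most 1.79 SD from their mean, and the ranges set by this distance, plus 0.05 for rounding, must not touch. Counts of separated promoters are thus lower limits.

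In the median over the 1441 gaining promoters, the level went from 2.30 in controls to 6.35 in DEHP in the C57BL/6J strain, and from 2.14 to 6.02 in the FVB/N strain. Over all eligible promoters the C57BL/6J medians were 4.37 and 6.13, and the FVB/N medians 4.04 and 5.91. In DEHP sperm the gaining promoters therefore stood near the median of all eligible promoters, and in control sperm below it. In C57BL/6J the quartiles of the gaining promoters were 1.41 and 3.63 in controls, and 4.49 and 9.19 after DEHP. In FVB/N they were 1.31 and 3.33, and 4.24 and 8.81. These levels chose the promoters and are a description.

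The gaining promoters had a median log2 change of 1.08 (C57BL/6J) and 1.10 (FVB/N). Over all eligible promoters the median was itself 0.27 and 0.25, so that the gaining promoters stood 0.81 and 0.85 above it. That median was -0.24 and -0.23 with means scaled to a common median and -0.18 and 0.31 with means as deposited, and the gaining promoters then stood 0.81 to 0.88 above it. The smaller of both strains' changes reached 1 in 634 promoters, 1.5 in 48 and 2 in 2, which were Aspn and Eftud1. The limit was passed in C57BL/6J by 3468 eligible promoters (19.1%) and in FVB/N by 3449 (19.0%), each with the 1441 included. The gaining promoters made up 41.6% of the C57BL/6J list and 41.8% of the FVB/N list. A loss of the same size in both strains was found for 400 eligible promoters (2.20%). With means scaled to a common median, 175 promoters gained and 2141 lost in both strains, and with means as deposited 526 gained and 593 lost.

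**Figure D1:**
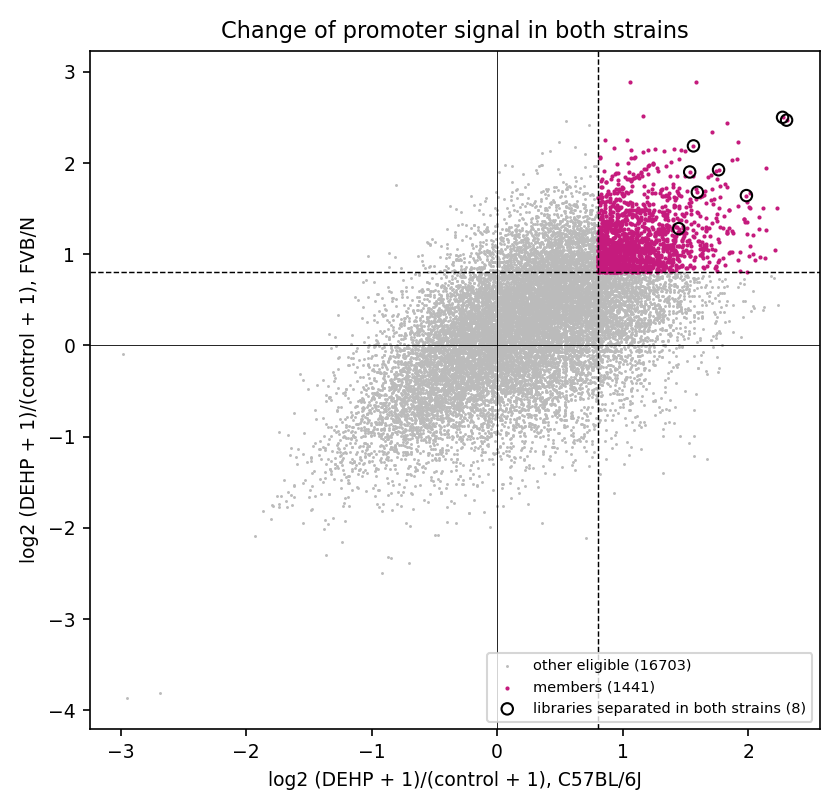
Log2 change of signal with DEHP in C57BL/6J (horizontal axis) and FVB/N (vertical axis) for 18144 eligible promoters, 1 point each. Dashed lines mark the limit of 0.8, the coloured points are the 1441 gaining promoters, and the 8 circles, all in the upper right, mark promoters whose libraries were separated in both strains.

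**Figure D2:**
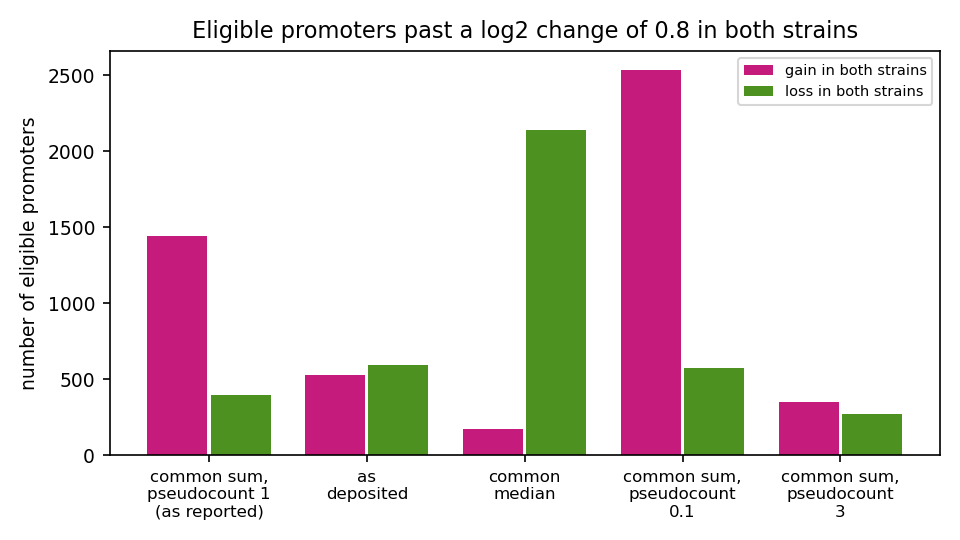
Number of eligible promoters past a log2 change of 0.8 in both strains, upwards and downwards, under 5 ways of scaling the means or setting the pseudocount. The bars for gain run from 175 with a common median to 2533 with a pseudocount of 0.1.

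Most gaining promoters had few reads in controls. The control level was at least 1 in both strains for 1134 of them and under 1 in both strains for 129. The DEHP level was at least 10 in both strains for 206. The SD exceeded the mean in 209 promoters in C57BL/6J controls and in 638 in FVB/N controls, against 5 and 27 in the DEHP groups. Alms1-ps2, a pseudogene promoter, was listed at 0 in the controls of both strains, at 1.09 ± 1.20 (SD, n = 5) in C57BL/6J DEHP and at 1.23 ± 0.893 (SD, n = 5) in FVB/N DEHP. It was named after its values were seen.

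Libraries were separated in C57BL/6J for 72 of the gaining promoters, against 0.716% of eligible promoters. In FVB/N they were separated for 62, against 0.513% of eligible promoters, and in both strains for 8, against 0.0441%. The rule used the same means, so nothing is read from the difference. The 8 were Aspn, Eftud1, Gm839, Adgb, 1810046K07Rik, Gfral, Cldn16 and Cd200. With means as deposited or scaled to a common median, none of the 8 stayed separated in both strains (0 in each case), since all 8 lost it in C57BL/6J. In FVB/N all 8 remained separated with means as deposited, and only Eftud1 with a common median.

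Aspn, the gene of asporin, a proteoglycan of the extracellular matrix, had the largest weaker change. Its probe (chr13:49542443-49544642, 14 CG sites) had a level of 1.26 ± 1.04 (SD, n = 5) in C57BL/6J controls and 10.2 ± 3.50 in C57BL/6J DEHP. In FVB/N the level was 0.832 ± 1.31 in controls and 9.15 ± 2.68 in DEHP. The log2 changes were 2.31 and 2.47. The highest value a control library could have was 3.22 (C57BL/6J) or 3.34 (FVB/N). A DEHP library could not lie below 3.76 or 4.20.

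Eftud1, a GTPase that acts in maturation of the large ribosomal subunit, had the largest changes among probes with over 40 CG sites. Its level was 0.519 ± 0.816 (SD, n = 5) in C57BL/6J controls and 6.35 ± 1.86 in C57BL/6J DEHP, and 0.832 ± 0.713 and 9.37 ± 1.56 in the FVB/N groups. The log2 changes were 2.27 and 2.50. Unlike Aspn it had a probe rich in CG sites, with 60 (chr7:82646614-82648813), and its control level was among those under 1 in both strains. The RIKEN gene 2210018M11Rik had log2 changes of 1.83 and 2.43.

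Gm839, a long noncoding RNA, had 2.74 ± 1.71 (SD, n = 5) without DEHP and 11.7 ± 2.30 with it in C57BL/6J, and 2.14 ± 1.66 without and 10.9 ± 2.57 with it in FVB/N. Cldn16, a claudin of kidney tight junctions, had the highest levels of the 8. These were 4.52 ± 1.26 and 15.0 ± 3.72 in C57BL/6J controls and DEHP, and 3.69 ± 1.90 and 16.5 ± 4.46 in FVB/N controls and DEHP. Gfral, the receptor of an appetite-suppressing growth factor, had log2 changes of 1.56 and 2.19, and Adgb, an androglobin gene of ciliated cells and testis, of 1.99 and 1.64. The RIKEN gene 1810046K07Rik had log2 changes of 1.59 and 1.68. Cd200, a membrane glycoprotein that restrains myeloid cells, was the lowest, with 0.371 ± 0.519 and 2.74 ± 0.657 in C57BL/6J controls and DEHP and 0.238 ± 0.594 and 2.01 ± 0.112 in FVB/N controls and DEHP. Its promoter carries 18 sequence variants between the strains.

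Among gaining promoters with a control level of at least 1 in both strains, the largest weaker changes belonged to Pcdhb20, Snn, Gm839, Slc5a7, Sprr2i, Svs2, 1700006A11Rik and Klrb1. Every one of these had 12 to 17 CG sites. Pcdhb20, a neuronal adhesion protein, went from 1.56 ± 1.26 (SD, n = 5) to 10.3 ± 4.27 in C57BL/6J and from 2.50 ± 2.26 to 12.5 ± 4.35 in FVB/N. The possible ranges of its libraries overlapped in both strains. Snn, a small membrane protein, had log2 changes of 1.82 and 1.77 with an SD of 5.91 around a DEHP mean of 9.30 in C57BL/6J. Slc5a7, the choline transporter of cholinergic neurons, had log2 changes of 1.75 and 1.83 and was separated in C57BL/6J. Svs2, a seminal vesicle protein that coats sperm, had log2 changes of 1.83 and 1.74 and was separated in FVB/N. Klrb1, a lectin receptor of natural killer cells, went from 2.97 ± 2.00 to 11.9 ± 3.06 in C57BL/6J and from 2.62 ± 1.90 to 12.2 ± 4.02 in FVB/N.

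**Figure D3:**
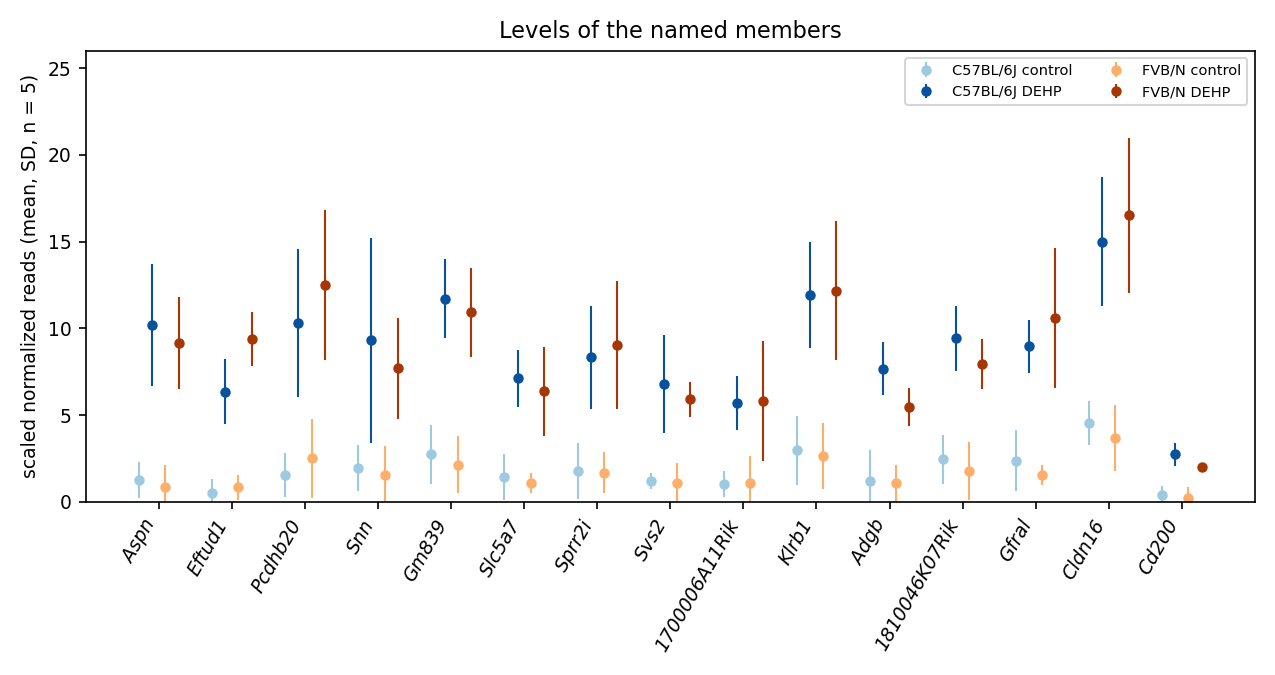
Level in scaled normalized reads (vertical axis, mean with SD, n = 5, the lower bar cut at 0) of the 15 promoters named for separation or for the strongest weaker change, ordered by that change. Both DEHP means lie above both control means for every promoter, and Cd200 has the lowest DEHP levels.

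The gaining promoters with the highest signal in DEHP had log2 changes of 0.81 to 1.93. Sp110, a nuclear body protein of leukocytes, rested at 19.2 ± 9.19 (SD, n = 5) in C57BL/6J controls and 43.2 ± 9.96 in C57BL/6J DEHP, and at 19.6 ± 23.8 and 35.0 ± 7.48 in the FVB/N groups. The difference of the FVB/N means was smaller than the SD of the FVB/N controls. Ptprc, the leukocyte phosphatase CD45, had log2 changes of 1.08 and 1.21, and St6galnac1, a sialyltransferase, of 0.86 and 0.95. The transcript 4930453L07Rik had log2 changes of 1.04 and 1.17. DQ267102, which lies beside Rian in an imprinted region, had log2 changes of 1.19 and 1.93 and was separated in FVB/N. The limit itself fell among promoters of like values: Tmc1, Bcl2 and Maml1 lay just inside with a weaker change of 0.80, and Fbxo25, Ikzf3 and I830077J02Rik just outside with 0.80 after rounding.

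The share of gaining promoters differed with the number of CG sites, a property of which the rule used only the lower limit. It was 26.6% of eligible probes with 11 to 15 CG sites and 12.9% with 16 to 20. It was 6.12% with 21 to 30, 7.07% with 31 to 40, 8.07% with 41 to 60 and 5.98% with 61 to 100. With 101 to 303 CG sites it was 3.23%. The median change over all eligible promoters of the first class was also high, with medians of 0.71 for C57BL/6J and 0.76 for FVB/N, so that the share there stood beside a shift of the class as a whole. With means scaled to a common median, the median change over the 2220 promoters with 11 to 20 CG sites was -0.0047 (C57BL/6J) and 0.12 (FVB/N). The share of gaining promoters was then 2.93% with 11 to 20 CG sites, 0.713% with over 40 and 0.965% over all.

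The gaining promoters thus held 425 probes with 11 to 20 CG sites, 290 with 21 to 40 and 726 with over 40. Their levels differed. With 11 to 20 CG sites the median level was 3.11 in C57BL/6J controls and 8.32 in C57BL/6J DEHP, and with over 40 it was 1.93 and 5.36. In FVB/N the medians were 2.73 and 7.92, and 1.66 and 5.13. The median number of CG sites was 41 over the gaining promoters and 53 over all eligible promoters. GC content was 45.5% against 48.8%, and the repeat-masked share 19.3% against 19.0%.

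**Figure D4:**
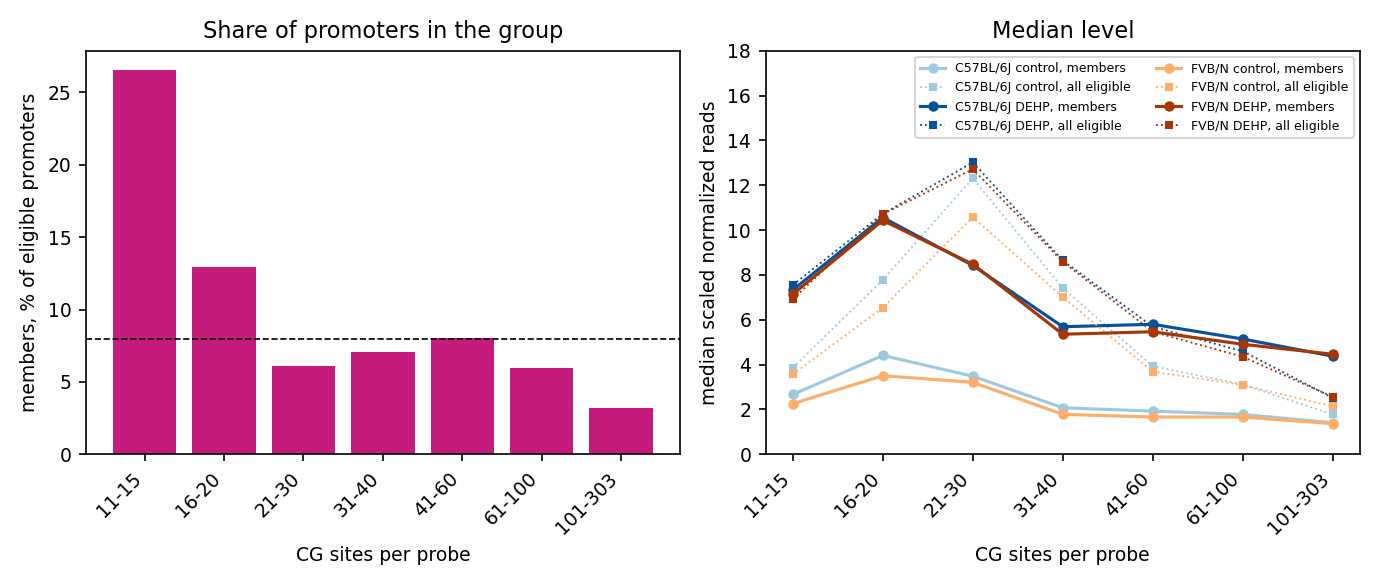
Left, gaining promoters as a percentage of eligible promoters by number of CG sites, with a dashed line at 7.94%. Right, median level in scaled normalized reads by number of CG sites for gaining promoters (solid lines) and all eligible promoters (dotted lines) in each group. The first class stands at 26.6%, and the control lines of the gaining promoters lie lowest in every class.

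Sequence differences between the strains were about as frequent as elsewhere, with 55.7% of gaining promoters and 53.4% of eligible promoters free of a variant. A protein-coding gene was recorded for 1264 gaining promoters and a long noncoding RNA for 142, or 9.85% against 8.78% of eligible promoters. A start of another coding gene on the opposite strand lay within the probe for 8.40% against 11.2%.

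The clustered protocadherins, adhesion proteins by which neurons tell their own branches from those of others, formed the longest runs of neighbouring gaining promoters. This family was picked after its values had been seen, and its genes are similar in sequence. Of its 56 eligible promoters 22 gained (39.3%, against 7.94% of all eligible promoters). These were 14 of 19 beta, 7 of 22 gamma and 1 of 15 alpha promoters. Of the 22 gaining promoters, only Pcdha3 had separated libraries, in C57BL/6J and not in FVB/N. Pcdha4 and Pcdha4-g are 1 probe under different names. Beta members ran from Pcdhb3 (C57BL/6J 4.52 ± 0.816 in controls and 10.1 ± 3.72 in DEHP, FVB/N 3.33 ± 2.50 and 12.5 ± 4.69, SD, n = 5) to Pcdhb20. Pcdhb14 had the lowest control levels, 0.148 ± 0.371 and 0.476 ± 1.19, and DEHP levels of 2.74 ± 1.31 and 3.46 ± 1.67. Pcdhb13 was not among them, with C57BL/6J levels of 13.6 and 19.9 and FVB/N levels of 26.4 and 21.9. Pcdha3 was the alpha member, with changes of 1.87 and 1.03, and Pcdhga6 had the largest weaker change of the gamma members, with 1.81 and 1.42. Several alpha promoters passed the limit in C57BL/6J alone, such as Pcdha5 with 1.92 against 0.64 and Pcdha11 with 2.18 against 0.76. With a common median 3 of the 19 beta promoters met the rule (15.8%, against 0.965% of all eligible promoters). With means as deposited 6 did (31.6%, against 2.90%). The median change of the beta promoters was 1.08 and 1.04, and with a common median 0.50 and 0.55.

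**Figure D5:**
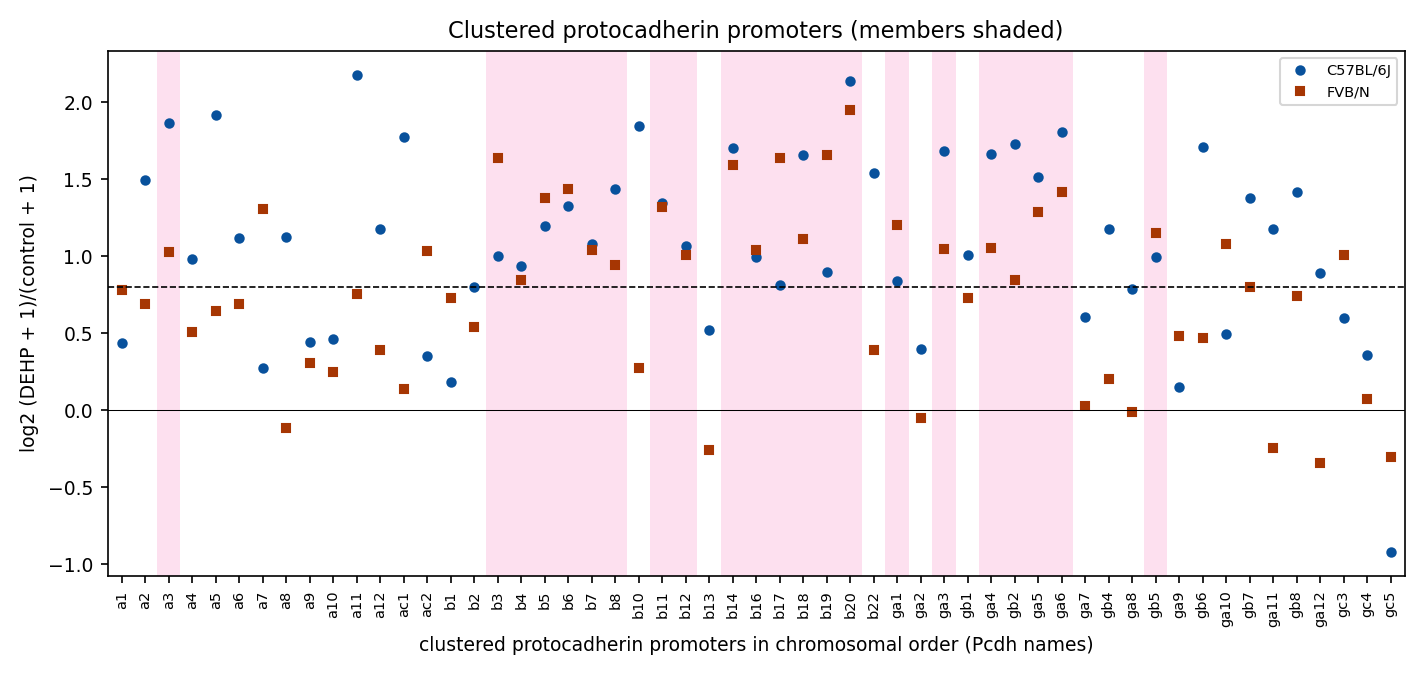
Log2 change with DEHP in C57BL/6J (circles) and FVB/N (squares) for eligible clustered protocadherin promoters, each probe once, in chromosomal order from alpha to beta to gamma. Shaded columns are the 22 gaining promoters, with a dashed line at 0.8, and the shading is densest over the beta genes.

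Part of the gaining promoters had a gaining neighbour. In 109 groups, they lay within 50 kb of each other, and these groups held 245 promoters, whereas 1196 stood alone. The next promoter within 50 kb was a gaining one for 14.8% of the neighbours of gaining promoters and for 6.13% of the neighbours of other eligible promoters. These shares include the protocadherin runs and were not computed without them. The probes of 17 neighbouring pairs shared bases and are not independent. The largest groups were 3 of protocadherins, with 8, 8 and 6 promoters, the second of which also held Taf7. Groups of 4 were Obp2a, Bmyc, Obp2b and Gm13539 on chromosome 2 and Alms1-ps2, Gm11128, Cml5 and Nat8 on chromosome 6. Groups of 3 included Hist1h4h, Hist1h1d and Hist1h3e on chromosome 13, Ahrr, Pdcd6 and Ccdc127 on chromosome 13, and Rian, DQ267101 and DQ267102 on chromosome 12. By chromosome the share ran from 4.90% on chromosome 17 to 13.7% on chromosome 18, where it was 10.6% without protocadherins.

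Natural killer and lectin receptors, taste-type receptors and genes of the major histocompatibility complex had shares above the 7.94% of all eligible promoters, and most of their gaining probes were poor in CG sites. Of 43 eligible natural killer and C-type lectin receptors 11 gained (25.6%), 10 of them among the 30 with 11 to 20 CG sites (33.3%, against 19.1% of all eligible promoters of that class). Clec5a, a myeloid lectin, had log2 changes of 1.43 and 1.69, and Klri1, a natural killer receptor, of 1.59 and 1.23. Of 31 taste, trace amine and formyl peptide receptors 7 gained (22.6%), all with 11 to 20 CG sites (7 of 24), and Tas2r135, a bitter taste receptor, stood at 7.19 and 14.2 in C57BL/6J controls and DEHP, and at 6.90 and 18.3 in the FVB/N groups. Of 33 genes of the major histocompatibility complex 5 gained (15.2%). These were 4 of 11 with 11 to 20 CG sites and 1 of 22 with more (4.55%, below the 6.38% of that class). H2-M10.5 had log2 changes of 1.68 and 1.84, and its promoter carries 43 sequence variants between the strains. With a common median 2 natural killer and lectin receptors (4.65%), 1 taste-type receptor (3.23%) and 1 gene of the major histocompatibility complex (3.03%) met the rule. The share was then 0.965% over all eligible promoters and 2.93% over those with 11 to 20 CG sites. The median change of the taste-type list in C57BL/6J, 0.55 as reported, was then -0.04. It was -0.24 over all eligible promoters and -0.0047 over those with 11 to 20 CG sites.

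Cytokines and their receptors (13 of 179, 7.26%) and leukocyte receptors of the immunoglobulin type (9 of 114, 7.89%) gained at about the share of all promoters. Il7r, the receptor chain of a lymphocyte growth factor, had log2 changes of 1.72 and 0.99 and was separated in C57BL/6J, and Il2, a T-cell growth factor, stood at 8.01 and 15.8 in C57BL/6J controls and DEHP, and at 7.61 and 22.4 in the FVB/N groups. Cornified envelope genes (3 of 9) were Sprr2i, Lce1g and Sprr2e. Drug-metabolizing enzymes gained in 17 of 148 (11.5%, against 7.94% of all eligible promoters). Among those with 11 to 20 CG sites 12 of 72 gained (16.7%), below the 19.1% of all eligible promoters of that class. Ugt1a9, a glucuronidating enzyme, went from 2.15 ± 1.33 (SD, n = 5) to 8.43 ± 3.50 in C57BL/6J and from 0.476 ± 0.713 to 9.93 ± 2.68 in FVB/N, where the libraries were separated. Cyp7a1, the rate-limiting enzyme of bile acid synthesis, had log2 changes of 0.95 and 1.51. Ugt1a promoters belong to 1 gene complex with shared exons. Of 18 genes of steroid synthesis and of the peroxisome proliferator receptors only Hsd3b6, a steroid dehydrogenase, gained, with 1.39 and 0.83 and possible ranges that overlapped in both strains.

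Among promoters rich in CG sites, replication-dependent histones had 11 of 49 in the gaining set (22.4%, against 6.38% of all eligible promoters with over 20 CG sites), and 0 lost. Hist1h4k, a core histone gene, went from 1.04 ± 0.741 (SD, n = 5) to 5.47 ± 1.97 in C57BL/6J and from 1.90 ± 2.14 to 6.14 ± 2.23 in FVB/N. Hist1h1c and Hist1h1d, linker histones, had log2 changes of 0.95 and 1.24 and of 1.26 and 1.13. These genes are near copies of each other and the reads of such copies are uncertain. With a common median 2 of the 49 met the rule (4.08%, against 0.965% of all eligible promoters). With a pseudocount of 3 only 1 did (2.04%, against 1.94%). Ribosomal protein genes gained in 6 of 95, a count that takes in Rps6kb1, which is a kinase, and small nucleolar RNAs in 9 of 103. Developmental transcription factors gained in 4 of 166 (2.41%), which were Nkx2-1, Sox17, Foxo1 and Foxj3. Ion channels gained in 16 of 267, including by its name Trp63, which is a transcription factor.

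The remaining lists lay on both sides of 7.94%. Solute carriers gained in 26 of 358 (7.26%), proteases and serpins in 18 of 193 (9.33%), and other G protein-coupled receptors in 7 of 129 (5.43%), a count that takes in Gprin3, which is no receptor. Prolactin, pregnancy glycoprotein and Ceacam genes gained in 4 of 23 (17.4%), secretoglobins and lipocalins in 4 of 28 (14.3%), and predicted or RIKEN genes in 199 of 2254 (8.83%). With 11 to 20 CG sites the prolactin list gained in 4 of 15 (26.7%) and the secretoglobin list in 3 of 20 (15.0%). All eligible promoters of that class gained in 19.1%. With a common median 0 of the prolactin list and 1 of the secretoglobin list met the rule. Lists were described by counts only.

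Genes that the authors' table marks for spermatogenesis gained in 20 of 355 (5.63%), and those marked for sperm part in 10 of 128 (7.81%), against 7.94% of all eligible promoters. Spef2, a protein of the sperm flagellum, went from 1.04 ± 0.741 (SD, n = 5) to 5.69 ± 2.08 in C57BL/6J and from 0.238 ± 0.476 to 5.24 ± 3.35 in FVB/N. Dpy19l2, which holds the acrosome to the nucleus, went from 0.519 ± 0.519 to 5.14 ± 1.86 in C57BL/6J, where it was separated, and from 1.07 ± 1.19 to 5.58 ± 5.24 in FVB/N, where the DEHP SD nearly reached the mean. Mns1 and Ift88, proteins of flagella and cilia, had log2 changes of 1.27 and 1.16 and of 1.17 and 1.05. The naming rule gave Txndc8, Txnrd3 and Tesk1 for spermatogenesis, with weaker changes of 0.83, 0.86 and 0.84. Spef2, Dpy19l2 and Ift88 were named after their values were seen. The marks for reproduction, reproductive process and sperm proteome covered 46 of 782 (5.88%), 71 of 990 (7.17%) and 51 of 792 (6.44%).

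Genes marked as imprinted gained in 15 of 103 (14.6%, against 7.94% of all eligible promoters). With 11 to 20 CG sites 4 of 13 gained (30.8%, against 19.1% of that class), and with more 11 of 90 (12.2%, against 6.38%). The marks of the authors' table were not counted under other scalings, and some of the 15 share an imprinted domain. Snrpn, expressed from the paternal copy and unmethylated on it, had 0.371 ± 0.519 (SD, n = 5) in C57BL/6J controls and 4.38 ± 1.09 in C57BL/6J DEHP, which were separated. In FVB/N it had 1.31 ± 1.43 in controls and 4.91 ± 1.34 in DEHP, which were not. Ndn, its neighbour in the same imprinted domain, had log2 changes of 2.02 and 1.09 and was separated in C57BL/6J. Impact had log2 changes of 1.52 and 1.02, Rian, a maternally expressed noncoding RNA, of 0.87 and 1.79, and Copg2 of 1.07 and 1.40. Probes need not cover the imprinting control element of a gene. The Snrpn probe holds only 15 CG sites. For this mark the naming rule gave Ppp1r9a, Trpm5 and Ntm, with weaker changes of 0.90, 0.97 and 0.96. The imprinted genes named above were instead picked with their values known.

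The label of sperm was checked on imprinted and germ-line promoters. H19, a gene whose imprint is methylated in sperm, stood between 18.8 and 22.4 in the 4 groups. It was the only 1 of 3 paternally methylated imprints above the median of eligible promoters in each. Promoter probes need not cover the element that carries the mark, so the levels of imprinted genes do not decide the label. Of 10 promoters of maternally methylated imprints, which sperm leaves unmethylated, 6 lay below that median in every group, and Nnat stood at 10.4 to 21.5. The 8 germ-line promoters, which are unmethylated in sperm and methylated in somatic cells, had C57BL/6J sums of 54.4 without and 63.4 with DEHP, and FVB/N sums of 83.8 and 59.7. None was at 0 in any group (0 of 8), and 4 of the 8 lay above the median of eligible promoters in every group, so that this list did not bear out the label. Dazl, their best-known member, stood at 12.6 in FVB/N controls against 3.12 to 5.56 elsewhere. With DEHP the germ-line sums were higher in the C57BL/6J strain and lower in the FVB/N strain. The sums of the other lists moved alike in both strains, though single promoters did not all do so. Maternally methylated imprints summed to 43.3 without DEHP and 51.8 with it in C57BL/6J, against 54.8 without and 59.1 with it in FVB/N. Sums of paternally methylated imprints were lower with DEHP, at 33.0 after 39.7 (C57BL/6J) and 28.2 after 35.1 (FVB/N). In C57BL/6J this came from Meg3, at 10.1 after 19.1, while H19 (19.7 after 18.8) and Rasgrf1 (3.28 after 1.78) were higher. In FVB/N all 3 were lower. Snrpn, a gaining promoter, belongs to the maternal list. By the methods, sperm preparations were inspected under the microscope and those with somatic cells were not kept. The part of somatic DNA in the result was not tested. The 1000 promoters with the highest level held 24.5% and 27.1% of the common sum in C57BL/6J and FVB/N controls, against 14.2% and 15.5% in the DEHP groups, and 1 gaining promoter was among them.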

How the data were processed

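MBD-seq was performed on sperm DNA of 20 males in 4 groups of 5. Per the submitters' notes and the methods, the authors used Bowtie 0.12.7 and mm10 for alignment, removed pairs with several positions, pairs over 600 bp apart and pairs without CpG in the insert, counted pairs over each promoter probe, normalized with edgeR, and deposited the mean and SD of this signal per group with 1 decimal. Promoters had been kept by the authors with over 3 read-pairs in over 2 samples. Expression values of an independent dataset and functional variants were not used. Columns with the authors' log2 fold changes, p-values and FDR hold their own comparisons and were not used.

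Group means were scaled to the mean of their 4 sums (167747), and log2 changes were computed with a pseudocount of 1. The change printed is the negative of the ratio used in the rule (control over DEHP, limit -0.8). Groups were taken from the labels. No test was run, since the rule had used the group means. CG content, GC, repeats and exons came from GRCm38.p6, where 93.2% of probes had the deposited number of CG sites, with GENCODE and RefSeq exons, and RefSeq gave gene types for 1434 members. Members, gene lists (19, by symbol pattern) and the protocadherin family were chosen with earlier results of these data known. Named promoters were the 8 with the largest weaker change at a control level of at least 1. Up to 10 separated in both strains and the 5 with the highest lower DEHP level were added. So were the 3 on each side of the limit, up to 3 per list, and neighbours within 50 kb. Not all of those per list are printed. Other names, such as Il7r, Cyp7a1, Spef2, Dpy19l2 and Ndn, were chosen after their values were seen. The window of 1 further promoter with over 40 CG sites is not reported here. Python 3.11.15, numpy 2.4.6, pandas 2.3.3, pysam 0.24.0 and matplotlib 3.10.9 were used.

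Scaling, the rule and the separation were tested on simulated data at 2 settings. Separation made no wrong call. Nearly all changed promoters were recovered at higher levels with a larger change, and clearly fewer at lower levels with a smaller change. Counting noise also let some unchanged promoters pass. The simulated spread between libraries was fixed and not fitted to the deposited SDs, so the number passing does not carry over to these data. The easier setting was added after the first had fallen short of the recovery asked of it. Alternatives were other scalings, pseudocounts, limits and filters.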

Additional observations from a re-analysis of the deposited data

How the results depend on the processing

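The number of gaining promoters, 1441, depended on the scaling and the pseudocount. It was 526 with means as deposited, 175 with a common median, 2533 with a pseudocount of 0.1, 352 with a pseudocount of 3, 634 with a limit of 1 in place of 0.8, 8 with separation in both strains and 878 with at least 30 CG sites. Of the 526 promoters, 506 were among the 1441, and all 175 and all 352 were. It was 1266 and 1694 with the smallest and the largest sum as the common sum, 1437 with the sum over eligible promoters, 1134 with a minimum of 1 normalized read and 1679 with no limit on CG sites. The median number of CG sites was 41, and 47 with a pseudocount of 0.1 or 23 with one of 3. It was 37 to 39 with the other scalings and the minimum. The median repeat-masked share was 18.7% to 19.7%. Over the promoters chosen anew under each alternative, which the limit holds near its own value, the median log2 change lay between 0.96 and 1.26 (C57BL/6J) and between 0.998 and 1.27 (FVB/N). Over the 1441 it was 0.68 and 1.13 with means as deposited and 0.60 and 0.65 with a common median. Leaving out single replicates could not be run, since values of single libraries were not used. No paired analysis was possible because the labels give no shared replicate numbers and only group means were used. The SD of the controls, which exceeded the mean in 209 gaining promoters in C57BL/6J and in 638 in FVB/N, limits single promoters.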
